A study of Rattus norvegicus with 28 samples.

Results

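Ccl2, Ccl3, Ccl4, Ccl5, Ccl7, Ccl19 and Ccl20 are 7 chemokines of the CC family, so called for adjoining cysteines, that draw monocytes and T cells, and their transcripts were followed in endothelial cells of rat heart grafts. They were taken by name as 7 of 14217 genes tested, each with the probe set of the highest mean over the endothelial arrays. Every member had 1 probe set, so nothing was chosen among probe sets. Endothelial RNA of male rats was hybridised to 24 Affymetrix arrays in 8 groups of 3. DA is the Dark Agouti strain, and its normal hearts formed the control of the allografts, DA hearts placed in Lewis recipients and taken on day 2, 3 or 4. Normal Lewis hearts formed the control of the isografts, Lewis hearts placed in Lewis recipients and taken on the same days. All graft hearts had been joined to vessels of the neck with cuffs, with no drug treatment named in the labels, while normal hearts had not been transplanted and so control for neither surgery nor ischaemia. In all groups cells carrying CD45, the common leukocyte antigen, were removed before cells carrying CD31 were collected. CD31 marks endothelium but also platelets and some leukocytes, so the fractions are enriched rather than pure. Leukocytes of allografts were measured on 4 more arrays, 1 of day 2, 2 of day 3 and 1 of day 4.

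Chemokines are small secreted proteins that bind to heparan sulfate on the vessel wall and signal to rolling leukocytes through receptors coupled to G proteins, which sets off arrest and migration into the tissue. Inflamed endothelium, macrophages, fibroblasts and activated lymphocytes can all make members of the family, after signals such as interleukin-1, tumour necrosis factor or interferon-gamma. Ccl2 and Ccl7 draw monocytes through Ccr2, and Ccl3, Ccl4 and Ccl5 draw monocytes, effector T cells and natural killer cells. Ccl19 calls naive T cells and mature dendritic cells through Ccr7, and Ccl20 calls cells that carry Ccr6.

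Promoter sequence is shown for the members with an entry in the RefSeq promoter table used here (assembly GRCr8), which were 3 of 7. It is printed to show which letters known from inducible chemokine promoters lie near the start of genes that changed to different degrees. Each window holds 230 bases, from 250 to 21 bases before the transcription start, written 5′ to 3′ on the strand of the gene. Capitals mark matches to GGNNTTTCC (NF-kB), TGANTCA (AP-1), GAAANNGAA (interferon regulatory factors) or TATAAA (the core promoter box bound by TBP), each searched on both strands.
Ccl7, chr10:67513845-67514074, plus strand: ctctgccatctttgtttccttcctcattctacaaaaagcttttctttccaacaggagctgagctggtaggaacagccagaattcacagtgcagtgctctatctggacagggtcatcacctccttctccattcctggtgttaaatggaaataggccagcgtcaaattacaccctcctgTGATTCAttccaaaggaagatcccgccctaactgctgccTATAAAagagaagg
Ccl19, chr5:61761185-61761414, minus strand: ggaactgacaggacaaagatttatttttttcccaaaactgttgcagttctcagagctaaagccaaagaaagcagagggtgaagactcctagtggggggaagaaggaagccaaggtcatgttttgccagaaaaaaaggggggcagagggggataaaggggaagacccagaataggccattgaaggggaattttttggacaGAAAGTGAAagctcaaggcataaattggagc
Ccl20, chr9:91836909-91837138, plus strand: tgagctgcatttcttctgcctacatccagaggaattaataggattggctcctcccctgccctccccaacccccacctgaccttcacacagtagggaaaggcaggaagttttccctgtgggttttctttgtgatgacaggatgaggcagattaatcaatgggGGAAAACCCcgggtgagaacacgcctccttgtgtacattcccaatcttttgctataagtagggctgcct
The Ccl7 window held TGATTCA at 73 to 67 bases and TATAAA at 34 to 29 bases before the start. In the window of Ccl19 the match was GAAAGTGAA, at 51 to 43 bases before the start. Ccl20 had GGAAAACCC, which is the NF-kB pattern read on the opposite strand, at 89 to 81 bases before the start. No matches overlapped. Of all 33469 windows of this length in the table, 4.76% held the NF-kB letters, 5.84% the AP-1 letters, 7.37% the interferon regulatory factor letters and 12.2% those of the core box, and a match is a description of letters and not of binding. On the same assembly Ccl2 and Ccl7 are neighbours on chromosome 10, with Ccl5, Ccl3 and Ccl4 farther along that chromosome and Ccl3 and Ccl4 next to each other. Ccl19 lies on chromosome 5 between Ccl27 and Ccl21, and Ccl20 on chromosome 9.

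The values are log2 signals, and a level is compared only for 1 gene between arrays. Array medians over all probe sets were 6.51 to 6.59 on endothelial arrays and 6.83 to 6.88 on leukocyte arrays, and correlations between replicates of a group, over genes rather than independent samples, were 0.965 to 0.995. The mean signal of 10 endothelial markers was 11.80 to 12.35 on the 24 endothelial arrays and 8.83 to 10.61 on the leukocyte arrays, with the highest leukocyte value on a day 3 array. The mean of 11 pan-leukocyte markers was 7.05 to 7.52 on arrays of normal hearts, 7.70 to 8.84 on isograft arrays, 8.53 to 9.37 on allograft arrays and 11.90 to 12.07 on leukocyte arrays. The endothelial label was thus borne out by its markers, while the mean of leukocyte markers was higher on every graft array than on every array of normal hearts. In bulk RNA, fewer cells of a type and less RNA per cell cannot be told apart.

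Transplantation was followed by higher chemokine transcripts in both graft types. Each graft group was compared with the normal hearts of its donor strain with limma, and a gene was called at an adjusted p (Benjamini-Hochberg over all 14217 genes) under 0.05. Of 42 tests, 7 members on 3 days in 2 graft types, 25 were called higher and 0 lower, 10 of 21 in isografts and 15 of 21 in allografts. The 3 days of a graft type share the same 3 normal arrays and are not independent. Isografts had 2, 4 and 4 members called higher on days 2, 3 and 4, while 1.06%, 1.8% and 2.61% of all genes were. In allografts 4, 5 and 6 members were called higher, against 3.53%, 1.55% and 7.19% of all genes. The median change of the members in isografts was 1.04 log2 on day 2, 1.61 on day 3 and 2.25 on day 4, that in allografts 1.80, 1.80 and 2.16 log2 in the same order, and the median over all genes lay between -0.01 and 0.03 log2 in these comparisons. By gene, Ccl7 was called in all 6 comparisons, Ccl2, Ccl3 and Ccl4 in 5 each, Ccl5 and Ccl19 in 2 each and Ccl20 in 0 (2 of 6 at an unadjusted p under 0.05). In 35 of the 42 comparisons all 3 graft arrays lay above all 3 arrays of normal hearts.

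**Figure D1:**
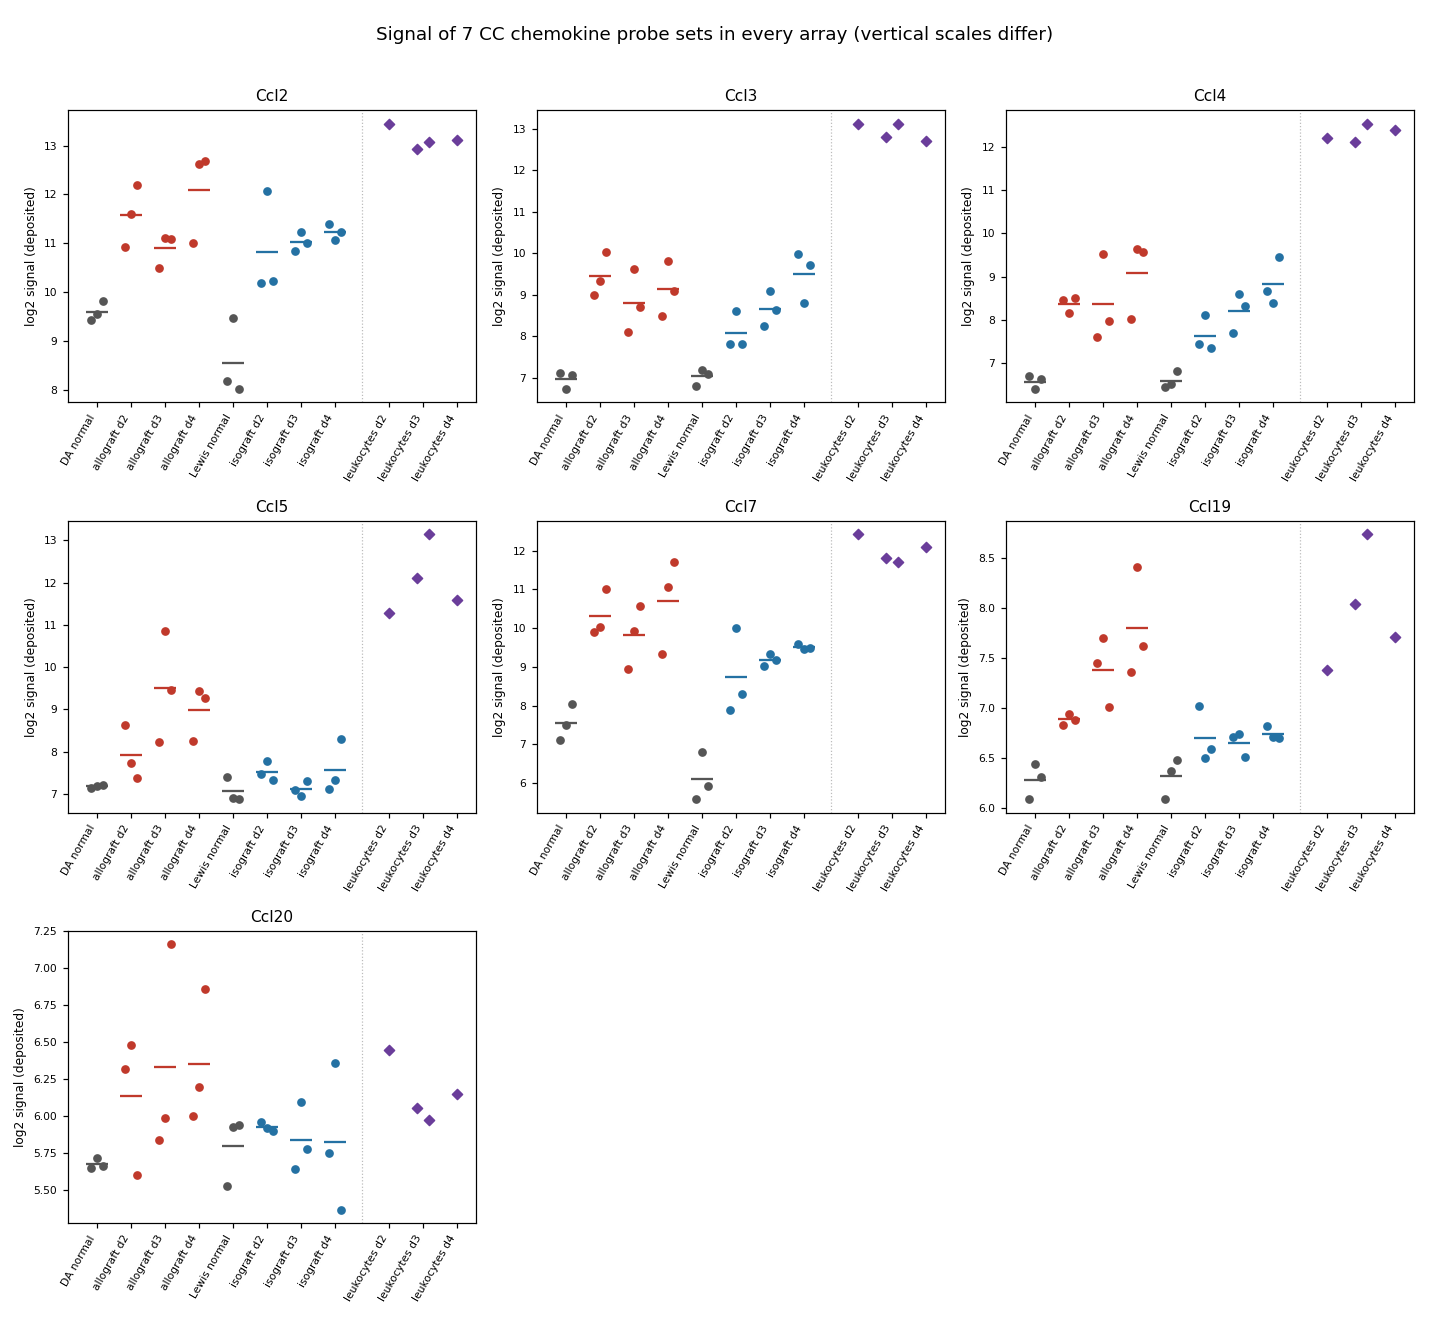
Deposited log2 signal (vertical axis, a separate scale for each gene) of the 7 chemokines on every array by group (horizontal axis). Circles are endothelial arrays with a line at the mean of 3, diamonds are leukocyte arrays, whose medians differ and which may have been normalized apart. Ccl2, Ccl3, Ccl4 and Ccl7 stand above normal hearts in both graft types, Ccl5 and Ccl19 chiefly in allografts, and Ccl20 spans 5.37 to 7.16 with overlap between all neighbouring groups.

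The monocyte chemoattractant Ccl2 rose in isografts on all 3 days and in allografts on days 2 and 4. Its log2 signals were 8.17, 9.46 and 8.01 in normal Lewis hearts, 10.18, 12.06 and 10.22 in isografts of day 2, 10.83, 11.23 and 11.01 on day 3 and 11.39, 11.06 and 11.23 on day 4. Every isograft array lay above every normal Lewis array, and replicate 2 was high among normal Lewis hearts and again among isografts of day 2. Normal DA hearts had 9.43, 9.54 and 9.83, and allografts had 10.93, 11.59 and 12.18 on day 2, 10.50, 11.10 and 11.08 on day 3 and 11.00, 12.62 and 12.68 on day 4. No allograft array fell into the range of normal DA hearts, and on day 4 replicate 1 lay well under the other replicates. The isograft changes were 2.27, 2.48 and 2.68 log2 on days 2, 3 and 4 (SE 0.48, n = 3 against 3, limma adjusted p = 0.0136, 0.00536 and 0.00206), the last a 6.41-fold rise. The allograft changes were 1.97, 1.29 and 2.50 log2 (same SE, limma adjusted p = 0.0154, 0.223 and 0.00151). Ordered by mean, Lewis normal was lowest, followed by DA normal, isograft day 2, allograft day 3, isograft day 3, isograft day 4, allograft day 2 and allograft day 4. Of the 7 steps between neighbours in that order 6 overlapped, and the step from DA normal to isograft day 2 did not. The day 2 isograft call was lost without Lewis normal replicate 1 or 3 or isograft day 2 replicate 2 (1.65 to 2.08 log2, limma adjusted p up to 0.132), and the day 2 allograft call without DA normal replicate 1 or 2 or allograft day 2 replicate 3 (1.66 to 1.94 log2, limma adjusted p up to 0.094).

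Its neighbour Ccl7, another chemoattractant for monocytes, rose in all 6 comparisons and by more log2 units than any other member in 5 of them. Normal Lewis hearts had 5.58, 6.81 and 5.94, and isografts had 7.89, 10.02 and 8.31 on day 2, 9.04, 9.34 and 9.18 on day 3 and 9.58, 9.47 and 9.49 on day 4. The groups did not overlap with normal Lewis hearts, and the 3 arrays of day 4 lay close together. Normal DA hearts had 7.12, 7.49 and 8.06, and allografts had 9.90, 10.04 and 11.02 on day 2, 8.95, 9.92 and 10.58 on day 3 and 9.34, 11.07 and 11.71 on day 4. These too lay above all normal DA hearts, with replicate 1 the lowest on each day, as it was for Ccl2. Isografts differed from normal Lewis hearts by 2.63, 3.08 and 3.40 log2 (SE 0.55, limma adjusted p = 0.0134, 0.00296 and 0.000827), and the last is a 10.6-fold rise. The normal Lewis mean, 6.11 log2, lay under the array medians of 6.51 to 6.59 over all probe sets. Whether that signal stood above background was not tested, so the fold rests on a weak signal in normal hearts. Allografts differed from normal DA hearts by 2.76, 2.26 and 3.15 log2 (limma adjusted p = 0.0036, 0.0308 and 0.000701). By mean the groups ran from Lewis normal over DA normal, isograft days 2, 3 and 4 and allograft days 3 and 2 to allograft day 4, and 5 of the 7 steps overlapped. The steps without overlap were from Lewis normal to DA normal and from isograft day 3 to isograft day 4. Over the 24 arrays Ccl2 and Ccl7 had r = 0.968, and r = 0.918 after each group's mean was removed, so arrays high in Ccl2 within a group were high in Ccl7 as well. The day 2 isograft call was lost without Lewis normal replicate 1 or 3 or isograft day 2 replicate 2 (1.99 to 2.54 log2, limma adjusted p up to 0.135), and the day 3 allograft call was lost without allograft day 3 replicate 2 or 3 or DA normal replicate 1 or 2 (1.88 to 2.23 log2). The day 4 allograft change was 3.83 log2 without replicate 1.

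Before any graft was placed, Ccl2 and Ccl7 differed most between the strains. Normal DA hearts were higher than normal Lewis hearts by 1.05 log2 for Ccl2 (95% interval 0.06 to 2.04, unadjusted p = 0.0386 and adjusted p = 0.556 by limma) and by 1.45 log2 for Ccl7 (0.30 to 2.59, unadjusted p = 0.0157 and adjusted p = 0.388). The Ccl7 arrays of both strains did not overlap, while for Ccl2 Lewis replicate 2 lay inside the DA range. The other 5 members differed by -0.12 to 0.12 log2. Of the 7 members 0 were called (2 at an unadjusted p under 0.05, limma), with 0.485% of all genes called higher in DA (1179 genes at an unadjusted p under 0.05 in either direction). The median of the members was -0.02 log2, with 0.0024 over all genes. On the same arrays 4 of 5 cardiomyocyte markers were called lower in DA (limma, median -1.76 log2), with array means of 6.52 to 7.55 in DA and 8.29 to 9.61 in Lewis, and 1 of 6 mural cell markers was called lower (median -0.63 log2). Their part in the chemokine levels was not tested.

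Ccl3, a ligand of Ccr1 that activated macrophages and lymphocytes secrete, rose in allografts on every day and in isografts on days 3 and 4. Normal Lewis hearts had 6.82, 7.20 and 7.11, and isografts had 7.82, 8.62 and 7.81 on day 2, 8.26, 9.10 and 8.65 on day 3 and 9.99, 8.80 and 9.73 on day 4. Isograft means were higher on each later day, and all arrays of day 4 lay above all of day 2. Normal DA hearts had 7.11, 6.73 and 7.08, and allografts had 9.0, 9.35 and 10.02 on day 2, 8.10, 9.61 and 8.71 on day 3 and 8.49, 9.82 and 9.10 on day 4. Allografts were above normal DA hearts throughout, with overlap between their days. Against normal Lewis hearts isografts differed by 1.04, 1.63 and 2.46 log2 (SE 0.39, limma adjusted p = 0.281, 0.0265 and 0.000577), and the allograft changes were 2.48, 1.83 and 2.16 log2 (limma adjusted p = 0.000425, 0.0107 and 0.00087). In the order of means the normal hearts came lowest, then isograft days 2 and 3, allograft days 3, 4 and 2 and isograft day 4. Only the step from Lewis normal to isograft day 2 was without overlap. The day 3 isograft call was lost when any of 5 arrays was left out, namely a normal Lewis array or isograft day 3 replicate 2 or 3 (1.41 to 1.71 log2), and the day 3 allograft call without DA normal replicate 2 or allograft day 3 replicate 2 (1.71 and 1.43 log2).

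Ccl4, which draws T cells and monocytes and lies next to Ccl3, rose in the same comparisons as Ccl3. In allografts its mean was highest on day 4 (9.07) and that of Ccl3 on day 2 (9.46), with overlap between days for both. In normal Lewis hearts the values were 6.45, 6.51 and 6.81, and isografts had 7.44, 8.11 and 7.35 on day 2, 7.69, 8.60 and 8.32 on day 3 and 8.65, 8.39 and 9.46 on day 4. In normal DA hearts they were 6.69, 6.39 and 6.62, and allografts had 8.46, 8.16 and 8.50 on day 2, 7.61, 9.51 and 7.98 on day 3 and 8.03, 9.63 and 9.56 on day 4. All graft arrays lay above all arrays of their normal hearts, and replicate 2 stood out upward among allografts of day 3 while replicate 1 stood low among those of day 4. Differences from normal Lewis hearts were 1.05, 1.61 and 2.25 log2 (SE 0.42, limma adjusted p = 0.364, 0.0463 and 0.00354), so that days 3 and 4 passed. Differences from normal DA hearts were 1.80, 1.80 and 2.51 log2 (limma adjusted p = 0.013, 0.0251 and 0.000528), which all passed. Group means rose from DA normal and Lewis normal over isograft days 2 and 3 and allograft days 3 and 2 to isograft day 4 and allograft day 4, and as for Ccl3 6 of 7 steps overlapped. Ccl3 and Ccl4 had r = 0.926 over the 24 arrays and r = 0.801 within groups. The day 3 allograft call of Ccl4 was lost without any 1 DA normal array or allograft day 3 replicate 2 (1.23 to 1.86 log2, limma adjusted p up to 0.173). Its day 2 allograft call was lost without DA normal replicate 2 or allograft day 2 replicate 3 (1.72 and 1.74 log2). The day 3 isograft call lay so close to the threshold that it was lost when any of 14 arrays was left out, the compared arrays among them being all 3 of Lewis normal and isograft day 3 replicates 2 and 3 (1.42 to 1.72 log2).

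Ccl5, which activated T cells, natural killer cells and, when stimulated, endothelium can make, rose in allografts on days 3 and 4 and had 0 calls in isografts. Normal DA hearts had 7.15, 7.17 and 7.22, and allografts had 8.63, 7.72 and 7.37 on day 2, 8.23, 10.86 and 9.46 on day 3 and 8.26, 9.44 and 9.26 on day 4. The normal hearts lay close together, all allograft arrays lay above them, and replicate 2 of day 3 was highest of all. Normal Lewis hearts had 7.39, 6.91 and 6.87, and isografts had 7.46, 7.78 and 7.32 on day 2, 7.08, 6.95 and 7.31 on day 3 and 7.11, 7.31 and 8.29 on day 4. Isografts overlapped with normal Lewis hearts on every day. The allograft changes were 0.73, 2.34 and 1.81 log2 (SE 0.46, limma adjusted p = 0.438, 0.00632 and 0.0136), the second a 5.05-fold rise. That day 3 change was 1.66 log2 without allograft day 3 replicate 2 (limma adjusted p = 0.0486) and 2.98 log2 without replicate 1, and it did not pass with only the compared groups in the fit (limma adjusted p = 0.0993). The isograft changes were 0.46, 0.06 and 0.52 log2 (95% intervals -0.50 to 1.43, -0.90 to 1.02 and -0.45 to 1.48, none at an unadjusted p under 0.05). Ordered by mean, the groups were Lewis normal, isograft day 3, DA normal, isograft days 2 and 4, and allograft days 2, 4 and 3, with overlap in 6 of 7 steps. The day 4 call was lost without allograft day 4 replicate 2 or 3 (1.58 and 1.67 log2, limma adjusted p = 0.0675 and 0.0661).

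Ccl19, the lymph node chemokine that guides Ccr7-bearing cells, rose in allografts on days 3 and 4. Normal DA hearts had 6.09, 6.44 and 6.31, and allografts had 6.83, 6.94 and 6.88 on day 2, 7.45, 7.70 and 7.01 on day 3 and 7.36, 8.40 and 7.62 on day 4. Every allograft array lay above the normal DA hearts, and all arrays of days 3 and 4 above all arrays of day 2. Normal Lewis hearts had 6.09, 6.37 and 6.48, and isografts had 7.02, 6.50 and 6.59 on day 2, 6.71, 6.74 and 6.51 on day 3 and 6.82, 6.71 and 6.70 on day 4. Isograft arrays also lay above the normal Lewis arrays, by less. The allograft changes were 0.61, 1.10 and 1.52 log2 (SE 0.21, limma adjusted p = 0.0993, 0.00463 and 7.3e-05), the last a 2.86-fold rise. The isograft changes were 0.39, 0.34 and 0.43 log2 (limma adjusted p = 0.592, 0.604 and 0.376). All arrays of normal hearts, 6.09 to 6.48, lay under the array medians of 6.51 to 6.59 over all probe sets. Whether these normal signals stood above background was not tested. In the order of means, DA normal and Lewis normal were followed by isograft days 3, 2 and 4 and allograft days 2, 3 and 4, and 4 of 7 steps overlapped. The steps from Lewis normal to isograft day 3, from isograft day 4 to allograft day 2 and from allograft day 2 to day 3 were without overlap. Without allograft day 4 replicate 2, which is not in that comparison but shares its estimate of spread, the day 2 allograft change passed as well (limma adjusted p = 0.0335).

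Ccl20, the ligand of Ccr6, did not pass in any of the 6 comparisons. Its values were 5.65, 5.71 and 5.66 in normal DA hearts and 6.32, 6.48 and 5.60, 5.84, 5.99 and 7.16 and 6.0, 6.20 and 6.86 in allografts of days 2, 3 and 4 in turn. They were 5.52, 5.92 and 5.94 in normal Lewis hearts and ranged from 5.37 to 6.36 in isografts. Allografts of days 3 and 4 lay above the normal DA hearts, each with replicate 3 far above the other replicates, and all other graft groups overlapped with their normal hearts. The allograft changes were 0.46, 0.65 and 0.68 log2 (SE 0.30, limma unadjusted p = 0.145, 0.0432 and 0.0373, adjusted p = 0.459, 0.429 and 0.177). The isograft changes were 0.13, 0.04 and 0.03 log2, with 95% intervals that reached from -0.60 to 0.76. All 7 steps in its order of group means overlapped. These means, 5.68 to 6.35 log2, lay under the array medians of 6.51 to 6.59 over all probe sets. Whether the Ccl20 signal stood above background was not tested.

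**Figure D2:**
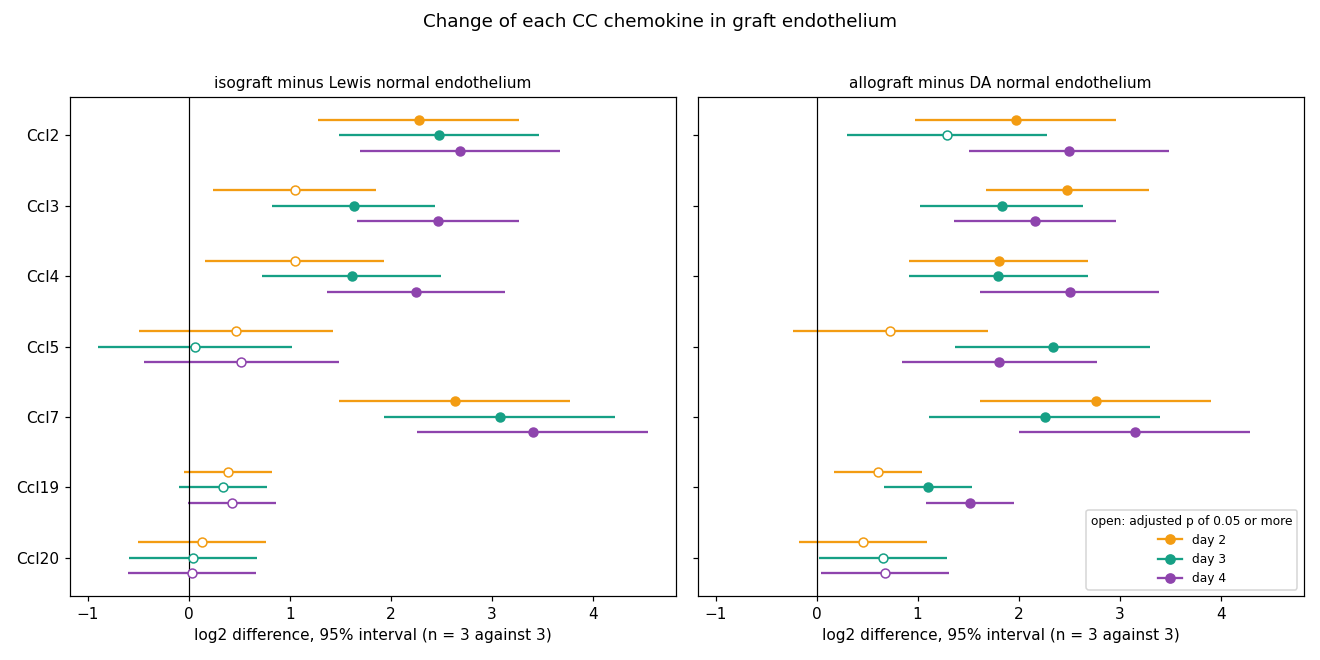
Log2 difference (horizontal axis) of each chemokine (vertical axis) between graft and normal endothelium of the donor strain on days 2, 3 and 4, with bars for 95% intervals (3 arrays against 3). Filled circles have an adjusted p under 0.05: Ccl7 is filled in all 6 comparisons, Ccl5 and Ccl19 in allografts of days 3 and 4, and Ccl20 in none.

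Whether the allograft change differed from the isograft change was tested for each day as a difference of changes. Each graft type is taken against the normal hearts of its donor strain, so the spread of both sets of normal hearts enters the result. Of the 7 members 0 were called on each day, with 1, 2 and 1 members at an unadjusted p under 0.05 on days 2, 3 and 4 (limma). Over all genes 0%, 0% and 0.00703% were called higher, with 480, 334 and 783 at an unadjusted p under 0.05 in either direction. The members' medians were 0.26, 0.20 and 0.26 log2. Ccl5 had the largest difference, 2.28 log2 higher in allografts on day 3 (95% interval 0.91 to 3.64, unadjusted p = 0.00233, adjusted p = 0.999, limma). Ccl3 on day 2 differed by 1.44 log2 (0.30 to 2.58, unadjusted p = 0.0158), and Ccl19 by 0.77 log2 on day 3 (0.15 to 1.39, unadjusted p = 0.0177) and 1.09 log2 on day 4 (0.47 to 1.71, unadjusted p = 0.00152, adjusted p = 0.486). Thus a call in allografts alone, as for Ccl5 and Ccl19, does not by itself show a difference between graft types. The Ccl19 difference of day 4 was 1.31 log2 and passed (limma adjusted p = 0.0409) without allograft day 4 replicate 1. For Ccl2 and Ccl7 the differences were -1.18 to 0.14 log2, and their intervals, from -2.59 to 1.75, leave room for sizeable differences in either direction.

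**Figure D3:**
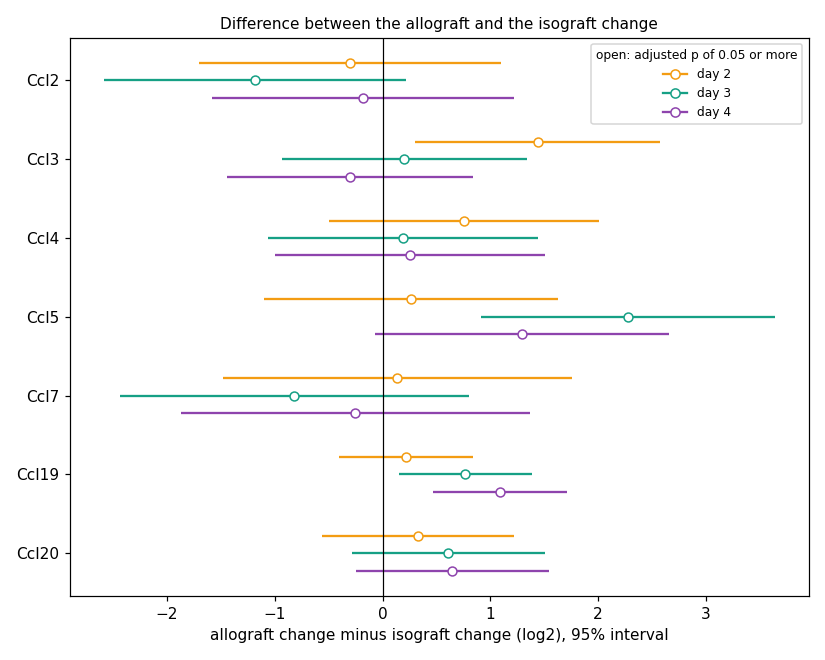
Allograft change minus isograft change (horizontal axis, log2) of each chemokine (vertical axis) on days 2, 3 and 4, with bars for 95% intervals. All circles are open (adjusted p of 0.05 or more), and the intervals of Ccl3 on day 2, Ccl5 on day 3 and Ccl19 on days 3 and 4 lie above 0.

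Between day 2 and day 4, 0 of 7 members were called in isografts, in allografts or in the difference of both (2, 2 and 2 at an unadjusted p under 0.05, limma). The shares of all genes called higher were 0.0352%, 0.38% and 0.00703%, with 343, 1197 and 345 genes at an unadjusted p under 0.05, and the members' medians were 0.41, 0.53 and 0.12 log2. In isografts Ccl3 was higher on day 4 by 1.42 log2 (95% interval 0.61 to 2.22, limma adjusted p = 0.555) and Ccl4 by 1.20 log2 (0.32 to 2.09, limma adjusted p = 0.999), with all arrays of day 4 above all of day 2 for both genes. In allografts Ccl19 was higher on day 4 by 0.91 log2 (0.47 to 1.35, limma adjusted p = 0.0635) and Ccl5 by 1.08 log2 (0.12 to 2.04, limma adjusted p = 0.531). Ccl19 passed without allograft day 4 replicate 1 (1.13 log2, limma adjusted p = 0.00443) or day 3 replicate 3 (0.91 log2, adjusted p = 0.0491). The time course of Ccl3 was lower in allografts than in isografts by -1.74 log2 (-2.88 to -0.60, unadjusted p = 0.00459) and that of Ccl19 higher by 0.87 log2 (0.25 to 1.49, unadjusted p = 0.00823), and neither passed after adjustment (limma).

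Leukocytes taken from allografts carried more Ccl3, Ccl4 and Ccl5 transcript than the endothelial fractions of allografts. Deposited Ccl3 signals were 13.12 on day 2, 12.80 and 13.10 on day 3 and 12.70 on day 4, where the highest allograft endothelial array had 10.02. For Ccl4 they were 12.21, 12.12 and 12.54, and 12.39 in the same order, and for Ccl5 11.28, 12.11 and 13.15, and 11.59. All 4 leukocyte arrays were above all 9 allograft endothelial arrays for these genes, and a day 3 array led for Ccl5. The leukocyte arrays may have been normalized apart, so the difference of 0.326 log2 between the medians was removed and no test was made. Against the endothelial mean of the same day, the 4 leukocyte arrays were then higher by 3.24 to 3.97 log2 for Ccl3, 2.99 to 3.85 for Ccl4 and 2.27 to 3.31 for Ccl5. Their mean over that of all 9 endothelial arrays was 11.1-fold, 10.5-fold and 7.48-fold. By a rule of at least 1 log2 between these means with no overlap, 3 of 7 members were higher in leukocytes, and 8.61% of all genes were. The members' median was 1.40 log2. Ccl2 (13.45 on day 2, 12.94 and 13.07 on day 3 and 13.12 on day 4) and Ccl7 (12.43, 11.80 and 11.70, and 12.11) were higher by 0.70 to 1.85 and 1.07 to 1.79 log2 against endothelium of the same day, with overlap over all days. The highest allograft endothelial arrays, 12.68 for Ccl2 and 11.71 for Ccl7 on day 4, reached the adjusted leukocyte range of 12.61 to 13.12 and 11.37 to 12.11. In the deposited values without adjustment, or without day 3 leukocyte replicate 1, Ccl2 met the rule as well. Ccl19 (7.38, 8.04 and 8.74, and 7.71) and Ccl20 (6.45, 6.05 and 5.97, and 6.15) differed by -0.41 to 1.03 and by -0.69 to -0.015 log2 and overlapped with allograft endothelium. The Ccl20 signals lay under the medians of the leukocyte arrays, 6.83 to 6.88, so this comparison rests on a weak signal.

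Markers of some infiltrating and neighbouring cells rose with the chemokines in the endothelial fractions, while those of others rose in few comparisons or fell. Of 13 macrophage markers, such as lysozyme Lyz2 and the glycoprotein Gpnmb, isografts had rises in 5, 12 and 13 on days 2, 3 and 4, and allografts in 13, 12 and 13. Their mean signal was 5.79 to 6.11 on arrays of normal hearts, 7.22 to 9.60 in isografts and 8.05 to 9.93 in allografts. The fixed pan-leukocyte list, of which 11 had values, had 1, 4 and 5 rises in isografts and 9, 8 and 9 in allografts. Of 12 T cell markers, such as Cd3g and Cd8a, 1, 1 and 3 rose in isografts and 3, 6 and 11 in allografts. Of 7 markers of cytotoxic lymphocytes, such as the granzymes Gzma and Gzmb, 0 rose in isografts on each day and 0, 3 and 6 in allografts, and at an unadjusted p under 0.05 (limma) still 0 in isografts and on day 2 but 7 and 7 in allografts of days 3 and 4. Their mean was 4.88 to 5.15 in normal hearts, 4.89 to 5.18 in isografts and 4.78 to 6.89 in allografts. In the difference of changes 0 of these 7 passed on days 2, 3 and 4 (0, 7 and 6 at an unadjusted p under 0.05, limma). There 0 T cell markers (2, 3 and 9 unadjusted), 0 pan-leukocyte markers (9, 2 and 5) and 0 macrophage markers (10, 0 and 0) passed either. Their counts by graft type thus do not by themselves show a difference between graft types. Of 6 neutrophil markers 4 rose in allografts of day 2 and 0 in each of the other 5 comparisons (0 or 1 at an unadjusted p under 0.05, limma), and 0 passed in the difference of changes of day 2 (2 unadjusted). Of 6 fibroblast markers 2 rose on day 4 in each graft type. Of 10 endothelial markers 1 rose and 1 fell in allografts of day 2 and 2 fell in those of day 4, with 0 called in the other 4 comparisons (1 to 2 in each at an unadjusted p under 0.05, limma). Cardiomyocyte markers, 5 with values, were lower in 3, 5 and 4 cases in isografts and in 2, 0 and 3 in allografts (4, 2 and 4 at an unadjusted p under 0.05, limma). These counts rest on normal hearts that differed between the strains, and the array means were 6.60 to 7.36 in isografts and 5.69 to 6.82 in allografts. Lymphatic endothelium also carries CD31, and of its 4 markers 2, 2 and 2 rose in isografts and 2, 1 and 1 in allografts, with medians of 1.65, 1.78 and 1.73 log2 and of 1.12, 0.42 and 1.00 log2. Among them podoplanin Pdpn rose in all 6 comparisons, by 1.76 to 3.00 log2, and the hyaluronan receptor Lyve1 rose in isografts by 2.37 to 2.46 log2. Of 6 mural cell markers 2 rose in allografts of day 4 and 0 in the other 5 comparisons (0 or 1 at an unadjusted p under 0.05 in the direction of a rise, limma). Of 3 dendritic cell markers with values, 0, 0 and 1 rose in isografts and 1, 1 and 1 in allografts, and all 3 were higher in leukocytes. Of 2 B cell markers 0 were called in each comparison of grafts with normal hearts (0 at an unadjusted p under 0.05, limma). None of these signals has a true 0 on an array, and the part of such cells in the chemokine changes was not tested.

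Arrays that stood out in chemokines stood out in some of the marker lists and not in others. Lewis normal replicate 2, highest of its group in Ccl2, Ccl3 and Ccl7, was not the highest in macrophage, fibroblast or T cell markers. It was the highest in cardiomyocyte markers (9.61, others 8.61 and 8.29) and, by little, in neutrophil and cytotoxic markers. Allograft day 3 replicate 3, highest of its group in Ccl7 and Ccl20, was the middle array for cytotoxic and T cell markers and the highest for neutrophil markers (5.60, others 4.85 and 5.28). Allograft day 3 replicate 2 was highest of its group in Ccl2, Ccl3, Ccl4, Ccl5 and Ccl19. It had the highest means of its group for cytotoxic (6.70, others 5.43 and 6.51) and T cell markers (7.34, others 6.27 and 7.09). The same held for macrophage (8.80, others 8.05 and 8.49), pan-leukocyte (9.15, others 8.53 and 8.69), dendritic cell and B cell markers. For fibroblast and neutrophil markers this array was the middle of its group. Allograft day 2 replicate 3, highest of its group in Ccl2, Ccl3, Ccl4 and Ccl7, had a macrophage mean of 9.93 (others 8.69 and 8.62), a fibroblast mean of 11.34 (others 7.81 and 8.49) and a neutrophil mean of 7.32 (others 5.30 and 6.15), but the lowest cytotoxic mean, 4.78, and the lowest Ccl5. Isograft day 2 replicate 2, highest in Ccl2, Ccl3, Ccl4, Ccl5 and Ccl7, had the highest means of its group for macrophage (8.42, others 7.22 and 7.32), fibroblast (9.17, others 7.46 and 8.21), neutrophil (5.90, others 4.73 and 4.88) and T cell markers (6.53, others 5.97 and 5.94). Allograft day 4 replicate 1, lowest of its group in all 7 members, had the lowest fibroblast mean of that group (7.94, others 11.70 and 10.23). It also had the lowest cytotoxic mean (5.39, others 6.20 and 6.89). The same held for T cell (6.70, others 7.51 and 7.72) and pan-leukocyte markers (8.90, others 9.34 and 9.37). Its macrophage mean of 9.38 lay close to the others (9.75 and 9.38).

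**Figure D4:**
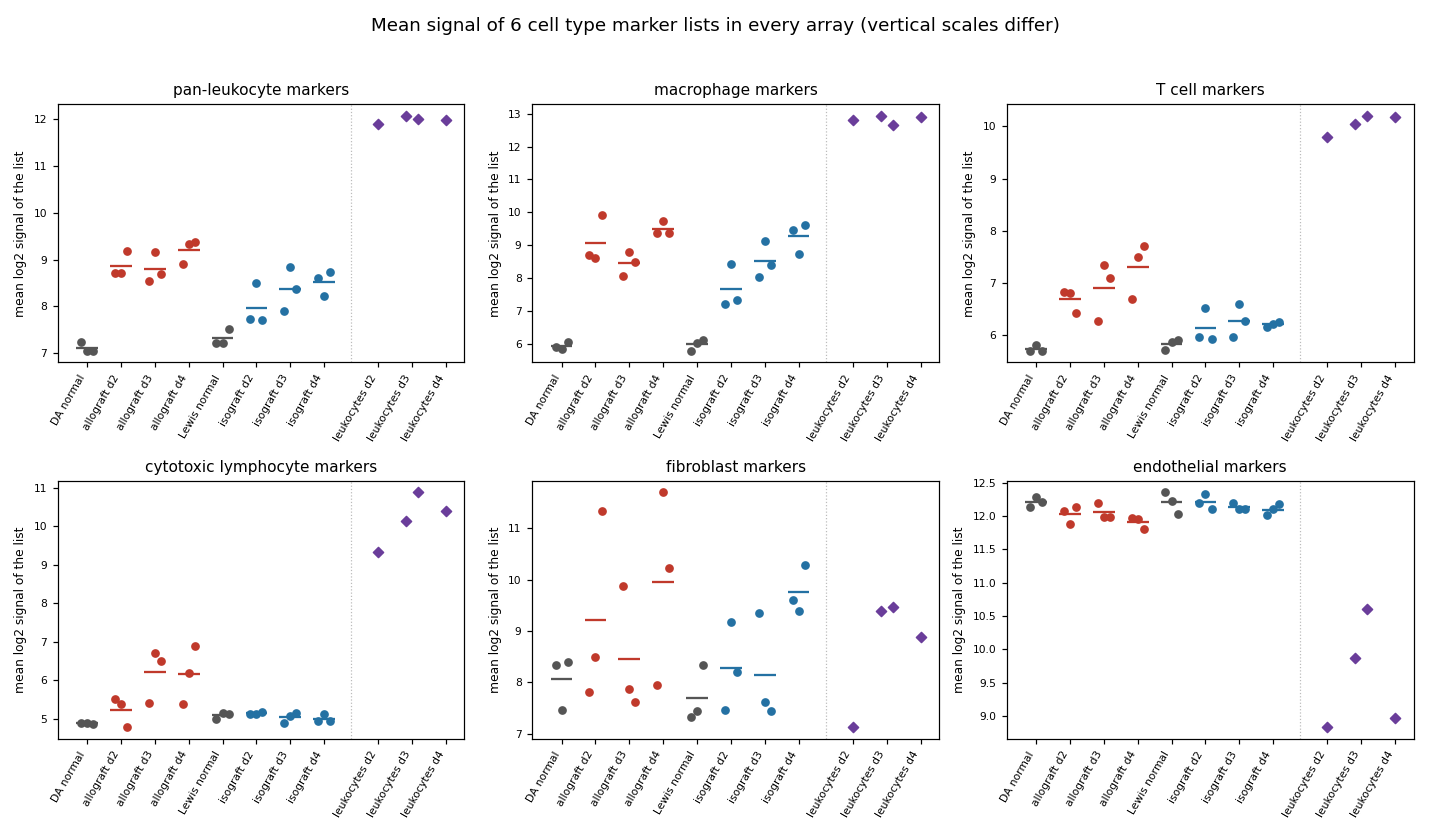
Mean log2 signal (vertical axis, a separate scale for each list) of 6 cell type marker lists on every array by group (horizontal axis), with circles for endothelial arrays, lines for means of 3 and diamonds for leukocyte arrays. Endothelial markers stay between 11.80 and 12.35 on endothelial arrays, macrophage markers rise in both graft types, and cytotoxic lymphocyte markers spread upward in allografts of days 3 and 4.

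The genes whose pattern over the 24 endothelial arrays was most like a member were found by Pearson's r, a description of arrays that share groups and preparation. For Ccl2 they were Timp1 (r = 0.951), an inhibitor of matrix metalloproteinases, Tifa (0.948), an adaptor of NF-kB signalling, and the membrane protein Pmp22 (0.945). Timp1 (0.964) and Pmp22 (0.946) were also among the 3 closest to Ccl7, with ceruloplasmin Cp (0.948). Of these 4 genes 0 were higher in leukocytes by the rule above, and Cp was lower. Closest to Ccl3 were Ms4a6bl1 (0.952), Pira2 (0.948) and Cybb (0.947), and closest to Ccl4 were Evi2a (0.946), Ptpro (0.943) and Cybb (0.940), which encodes the catalytic subunit of the phagocyte NADPH oxidase. Ccl5 was nearest to the killer cell receptor Klrd1 (0.935), P2ry10 (0.916) and Tagap (0.909). Ccl19 had lower values, 0.885 with Prkcb, 0.864 with complement C3 and 0.857 with Spn, the leukocyte sialophorin. Ccl20 was closest to Cd7 (0.869), perforin Prf1 (0.818) and Prkcq (0.791), of which Cd7 and Prf1 are expressed in T and natural killer cells. Most Ccl20 signals lay under the array medians, with 7.16 and 6.86 on single allograft arrays of days 3 and 4, so these r values rest on a weak signal. All of the genes named for Ccl3, Ccl4, Ccl5, Ccl19 and Ccl20 were higher in the leukocyte arrays. Within groups, Ccl4 and Ccl5 had r = 0.773, whereas Ccl5 and Ccl2 had r = 0.225.

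Among other CC chemokines, 9 of 12 listed had a usable probe set, and those called were Ccl6 and Ccl9, which lie between Ccl5 and Ccl3 on chromosome 10. Ccl6, known in mice as a product of macrophages and other myeloid cells, rose in isografts (2.22, 4.12 and 4.03 log2) and in allografts (4.23, 3.44 and 4.30 log2) on days 2, 3 and 4 (SE 0.54, limma adjusted p at most 0.0437). Ccl9 rose in isografts of day 4 by 2.17 log2 and in allografts of days 2 and 4 by 1.48 and 1.82 log2 (SE 0.33, limma adjusted p at most 0.00977). Thus 1, 1 and 2 of 9 rose in isografts and 2, 1 and 2 in allografts, with 0 lower (none at an unadjusted p under 0.05 either, limma), and both were higher in leukocytes. Medians of the 9 were 0.12, 0.33 and 0.10 log2 in isografts and 0.48, 0.09 and 0.28 log2 in allografts. Ccl21, the other ligand of Ccr7 and a neighbour of Ccl19, changed by 1.65, 1.12 and 1.19 log2 in isografts and by 0.89, -0.02 and 0.63 log2 in allografts, and none of these passed (limma). It is named as the partner of Ccl19, after its values were seen.

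Among 10 receptors with a probe set, of 14 listed, 1 rose on each day in isografts and 2, 1 and 5 rose in allografts, with 0 lower (at an unadjusted p under 0.05, 1 in allografts of day 2 and 1 in those of day 4, limma). Ackr1, the receptor of venular endothelium that binds Ccl2, Ccl5 and Ccl7 without signalling and carries them across the cell, rose in each graft group. Its allograft changes were 2.39, 2.21 and 2.78 log2 (SE 0.30, limma adjusted p at most 0.000169), and it was lower in leukocytes than in allograft endothelium. The receptor of Ccl3 and Ccl5 Ccr1, on monocytes and neutrophils, rose by 2.19 log2 in allografts of day 2 (limma adjusted p = 0.00223). On day 4 rises in allografts were 1.44 log2 for Ccr2, the receptor of Ccl2 and Ccl7, 0.68 for Ccr4, a T cell receptor for Ccl17 and Ccl22, 1.16 for Ccrl2, which binds chemerin, and 1.80 for Ackr2, a scavenger of inflammatory CC chemokines (limma adjusted p at most 0.0315). Ccr1, Ccr2, Ccr4 and Ccrl2 were higher in leukocytes, and Ackr2 was lower. Receptor medians were 0.27, 0.23 and 0.08 log2 in isografts and 0.59, 0.60 and 0.92 log2 in allografts. In the difference of changes 0 of the 10 receptors passed on each day. At an unadjusted p under 0.05 (limma) 3, 0 and 3 were higher and 1, 0 and 0 lower on days 2, 3 and 4. Between the normal hearts 1 of 10 was called higher in DA than in Lewis, so the controls of the graft types differed.

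**Figure D5:**
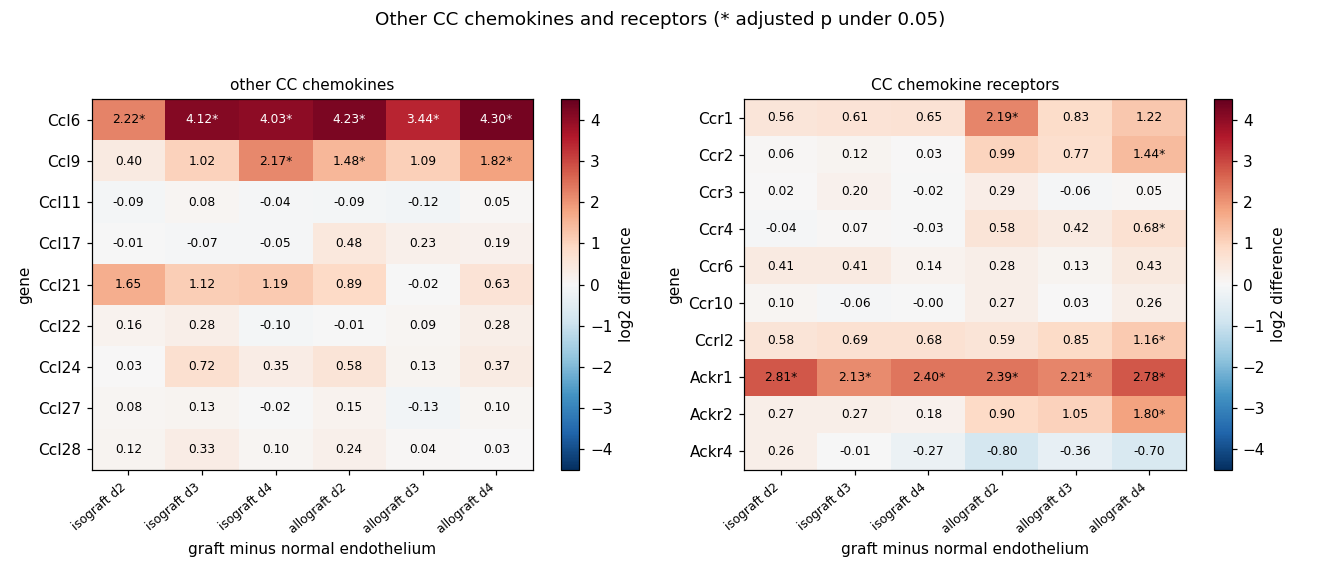
Log2 difference (colour and printed value) of 9 other CC chemokines and 10 receptors (vertical axes) between graft and normal endothelium by graft type and day (horizontal axes). Stars mark an adjusted p under 0.05: Ccl6 and Ackr1 have one in every column, and most receptors with a star have it in allografts of day 4.

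Of 24 genes with values among 26 cytokines and transducers that can induce chemokines, 2, 4 and 4 rose in isografts and 5, 4 and 6 in allografts, while 2, 0 and 2 were lower in allografts. Il1b, an inducer of Ccl2 in many cells, rose by 4.96, 3.70 and 4.07 log2 in allografts (SE 0.70, limma adjusted p at most 0.00463) and by 3.03 and 3.24 log2 in isografts on days 3 and 4. The pattern receptor Tlr2 rose in all 6 comparisons, by 1.27 to 2.36 log2, as did Il6st, the signalling chain of interleukin-6 receptors, by 0.57 to 1.10 log2. The NF-kB inhibitor Tnfaip3 rose on days 3 and 4 in isografts (1.52 and 1.35 log2) and on day 2 in allografts (1.29 log2). Ltb, a lymphotoxin chain, rose in allografts by 1.22 and 1.56 log2 on days 3 and 4. Tnf was lower in allografts of day 2 (-1.79 log2) and day 4 (-1.55 log2, SE 0.39, limma adjusted p = 0.00788 and 0.0128). To complete the counts, and chosen after their values were seen, Tnfrsf1a rose in allografts of days 2 and 4, Il1r1 rose in those of day 4, and Tlr4 was lower in those of days 2 and 4. The list's medians, 0.23, 0.31 and 0.34 log2 in isografts and 0.21, 0.21 and 0.38 log2 in allografts, lay under those of the 7 chemokines. In the difference of changes 0 of these 24 genes passed on each day (3, 1 and 2 higher and 0, 1 and 0 lower at an unadjusted p under 0.05, limma). Of 12 genes of heparan sulfate proteins and synthesis, 0, 0 and 1 rose in isografts (1, 2 and 2 at an unadjusted p under 0.05, limma) and 2, 0 and 2 in allografts (2, 2 and 3 at an unadjusted p under 0.05), and these were the syndecans Sdc1 (1.42 log2 in isografts of day 4, 1.46 and 1.77 log2 in allografts of days 2 and 4) and Sdc4 (2.05 and 2.33 log2 in allografts of days 2 and 4).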

How the data were processed

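RNA of endothelial fractions (24 arrays, 8 groups of 3) and graft leukocytes (4 arrays) was measured on Affymetrix arrays after 1 cycle of cRNA amplification. Each deposited value is a log2 signal of 1 probe set, made by the authors by RMA with affy per the submitters' processing notes (their versions and any build were not given in the sources used here). The medians differ between the endothelial and the leukocyte arrays, so both sets may have been normalized apart. All data columns were mapped to samples (0 others). Of 31099 probe sets, 57 controls, 436 matching several genes and 9780 not listed in the annotation were left out. Of 20826 with 1 gene, 20758 had an identifier in the RefSeq list (GRCr8) that gave the symbols. The brightest probe set over the endothelial arrays stood for each of 14217 genes, with no filter on dim genes. All 7 members passed the filter tried as an alternative (6 log2 or more on 3 arrays).

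limma 3.58.1 (lmFit and eBayes in R 4.3.3 with data.table, version 1.17.8) estimated a mean for each endothelial group from 24 arrays (residual degrees of freedom 16, prior degrees of freedom 4.06). In each of 13 comparisons p-values were two-sided and adjusted by the Benjamini-Hochberg method over 14217 genes, and an adjusted p under 0.05 was called. The median SE of a graft change over all genes was 0.165 log2. Arrays of a group are described by the submitters as biological replicates. Whether 1 animal stands behind each was not stated there, so p-values reflect the spread between samples alone. Array signals have no counting depth, and the number of arrays limits the precision. The fit was run on simulated data with known changes and independent noise for each gene and array. This checks the computation and not relations between the arrays used here. Leukocyte levels were set against allograft endothelium of the same day and of all days after the medians were aligned, without a test.

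Named are all members, the 3 genes with the highest r to each, up to 6 called genes of each pathway list by size, and examples of the cell type lists. The members and lists were chosen with earlier results of these data known. Alternatives were an intensity trend in the prior, the filter on dim genes, the mean of a gene's probe sets, only the compared groups in the fit, the replicate number as a block, centring of each array, and leaving out each array. For the leukocyte comparison they were unadjusted values and joint quantile normalization. Proteins were not analysed here.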

Additional observations from a re-analysis of the deposited data

How the results depend on the processing

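The number of members called stayed within 1.5 times in 380 of 397 recounts. These include comparisons with 0 members called, where 0 again was taken as within, and fits without an array that was not compared. The total therefore says little about the graft comparisons, whose changes are given below. With only the compared groups in the fit, 0 members were called in isografts of day 2, where Ccl2 and Ccl7 had adjusted p of 0.117 and 0.066. In allografts of day 3 under that setting Ccl2 passed (0.017) while Ccl4 (0.104) and Ccl5 (0.0993) did not. That setting has fewer samples, and it moved the genes called higher from 256 to 410 (isografts of day 3), 502 to 332 and 1022 to 366 (allografts of days 2 and 4), 0 to 3 and 1 to 2 (differences of days 3 and 4), 5 to 1 and 54 to 0 (day 4 against day 2 in isografts and allografts) and 1 to 0 (difference of these). With the replicate block the members called were 2, 4 and 4 in isografts and 4, 5 and 6 in allografts, as without it. Same-numbered arrays had r over 0.1 in 42 of 84 pairs, and 16 of 24 arrays correlated best with their own number, a hint from the data and not the design. With single arrays left out, members called ranged from 0 to 2, 2 to 4 and 4 to 4 in isografts, 2 to 5, 2 to 5 and 5 to 6 in allografts of days 2, 3 and 4, 0 to 1 for the difference of day 4 and for allograft day 4 against day 2, and 3 to 4 for leukocytes. Isografts of day 2 had 0 without Lewis normal replicate 1 or 3 or isograft day 2 replicate 2, and isografts of day 3 had 2 without any Lewis normal array or isograft day 3 replicate 2 or 3. Allografts of day 2 had 2 without DA normal replicate 2 or allograft day 2 replicate 3, and those of day 3 had 3 without DA normal replicate 1 and 2 without DA normal replicate 2 or allograft day 3 replicate 2. Without allograft day 4 replicate 1, 393 genes were called for allograft day 4 against day 2 and 75 for the difference of day 4. Signs turned in 68 values, 0 of them of a called change. With the probe sets averaged Sdc1 was -0.041 log2 in isografts of day 2. With centred arrays Ccl20 was -0.00042 and -0.075 and Ccr2 -0.077 in isografts of days 3, 4 and 4, and day 4 against day 2 in isografts was -0.020 for Ccl5 and -0.034 for Ccl19. With arrays left out, strain differences ran from -0.18 to 0.057 for Ccl3, -0.091 to 0.092 for Ccl4 and -0.15 to 0.060 for Ccl19. In isografts of day 2 the ranges were -0.0053 to 0.20 for Ccl20, -0.028 to 0.11 for Ccr2, -0.15 to 0.011 for Ccr4 and -0.21 to 0.39 for Sdc1. On day 3 they were -0.040 to 0.23 for Ccl5, -0.093 to 0.14 for Ccl20, -0.093 to 0.23 for Ccr2 and -0.047 to 0.20 for Ccr4, and on day 4 -0.24 to 0.26 for Ccl20, -0.042 to 0.082 for Ccr2 and -0.12 to 0.073 for Ccr4. The difference of changes of day 2 ran from -0.76 to 0.32 for Ccl2, -0.098 to 0.53 for Ccl5 and -0.29 to 0.77 for Ccl7, that of day 3 from -0.20 to 0.56 for Ccl3 and -0.39 to 0.57 for Ccl4, and that of day 4 from -0.64 to 0.37 for Ccl2, -0.66 to 0.022 for Ccl3, -0.020 to 0.78 for Ccl4 and -0.76 to 0.43 for Ccl7. Day 4 against day 2 ran in isografts from -0.30 to 0.28 for Ccl5, -0.062 to 0.20 for Ccl19 and -0.37 to 0.13 for Ccl20, and in allografts from -0.66 to 0.0033 for Ccl3, -0.12 to 1.07 for Ccl7 and -0.051 to 0.39 for Ccl20. The difference of these ran from -0.50 to 0.67 for Ccl2, -0.78 to 0.026 for Ccl4 and -1.03 to 0.29 for Ccl7. The cause was not tested.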
